A study of Mus musculus with 26 samples.

Results

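Nanog, Klf2, Prdm14, Sox2 and Utf1 are 5 genes whose products act in the nucleus of pluripotent cells of the early mouse embryo. They were taken by symbol from a table of 55254 gene symbols measured in 26 single inner cell masses (ICMs). All 5 were found, and all 5 were among the 12034 genes that reached 1 TPM in at least 5 libraries and were tested. TPM, the unit of all levels, is a transcript's share of a library, corrected for transcript length. Every ICM came from a CD-1 morula at E2.75 that had been grown for 24 hours in KSOM medium, and each library is 1 embryo, made with the FLASH-seq protocol, which copies whole transcripts from very small samples. The 5 DMSO embryos received the vehicle alone, and the 7 LY embryos received LY294002, a PI3K inhibitor, at 10 µM. The 8 FGF4 embryos received the growth factor FGF4 with heparin at 1 µg/ml, and the 6 LY+FGF4 embryos received both agents at these doses. In all groups the zona pellucida was taken off and immunosurgery was used to obtain the ICM, and embryos of 5 litters had been mixed before they were assigned, so that the litter of a library is unknown. The study asked what PI3K signalling does while ICM cells are specified.

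The ICM gives rise to the epiblast, which forms the fetus, and to the primitive endoderm, which forms extraembryonic tissue. FGF4 secreted by epiblast-fated cells acts through FGF receptors and ERK to favour primitive endoderm, and NANOG marks and promotes the epiblast fate. SOX2 and OCT4 (encoded by Pou5f1) bind composite DNA elements together and activate other pluripotency genes. KLF2 is a zinc finger factor of the naive pluripotent state that MEK/ERK signalling is known to destabilise in embryonic stem cells, PRDM14 is a repressor that dampens FGF receptor and DNA methyltransferase genes in the same cells, and UTF1 is a chromatin-associated factor.

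The libraries differed in how many genes they listed. Between 10212 and 11367 genes reached 1 TPM in the DMSO libraries and 9860 to 10215 in the LY libraries, while the FGF4 libraries had 8315 to 10871 and those of LY+FGF4 7486 to 9534. Fewer than 9000 genes were listed in replicates 2 and 3 of FGF4 and in replicates 2, 3, 5 and 8 of LY+FGF4, so that LY+FGF4 without them holds only replicates 6 and 7. A list of 20 primitive endoderm genes, 18 of them tested, summed to 904 to 1694 TPM in DMSO and 314 to 566 TPM with LY, and to 1775 to 4957 TPM with FGF4 and 883 to 3793 TPM with both. A list of 16 trophectoderm genes (outer cells of the blastocyst), 13 of them tested, summed to 1377 to 2588 TPM in DMSO and 1928 to 2928 TPM with LY, and to 597 to 1921 TPM with FGF4 and 782 to 2555 TPM with both. Of the defining trophectoderm markers, Krt8 was above 0 in all 26 libraries, Krt18 was listed at 0 in 1 LY+FGF4 library, and Cdx2 was listed at 0 in 2 FGF4 and 4 LY+FGF4 libraries. Because each library is a whole ICM, fewer cells of a type and less RNA per cell cannot be told apart in any result below. All p-values measure the spread between these embryos.

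The 5 genes had different levels in vehicle-treated ICMs. Mean levels were 372 ± 72.1 TPM (SD, n = 5) for Utf1, 178 ± 20.8 for Nanog, 130 ± 29.3 for Klf2, 25.5 ± 9.13 for Sox2 and 8.55 ± 7.15 for Prdm14. That order held in every DMSO library except replicate 7, in which Prdm14 (18.74 TPM) stood above Sox2 (16.8 TPM). Relative to the mean, Nanog had the smallest spread of the 5 between DMSO embryos, with a coefficient of variation of 11.7%, and Prdm14 the greatest, at 83.6%.

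**Figure D1:**
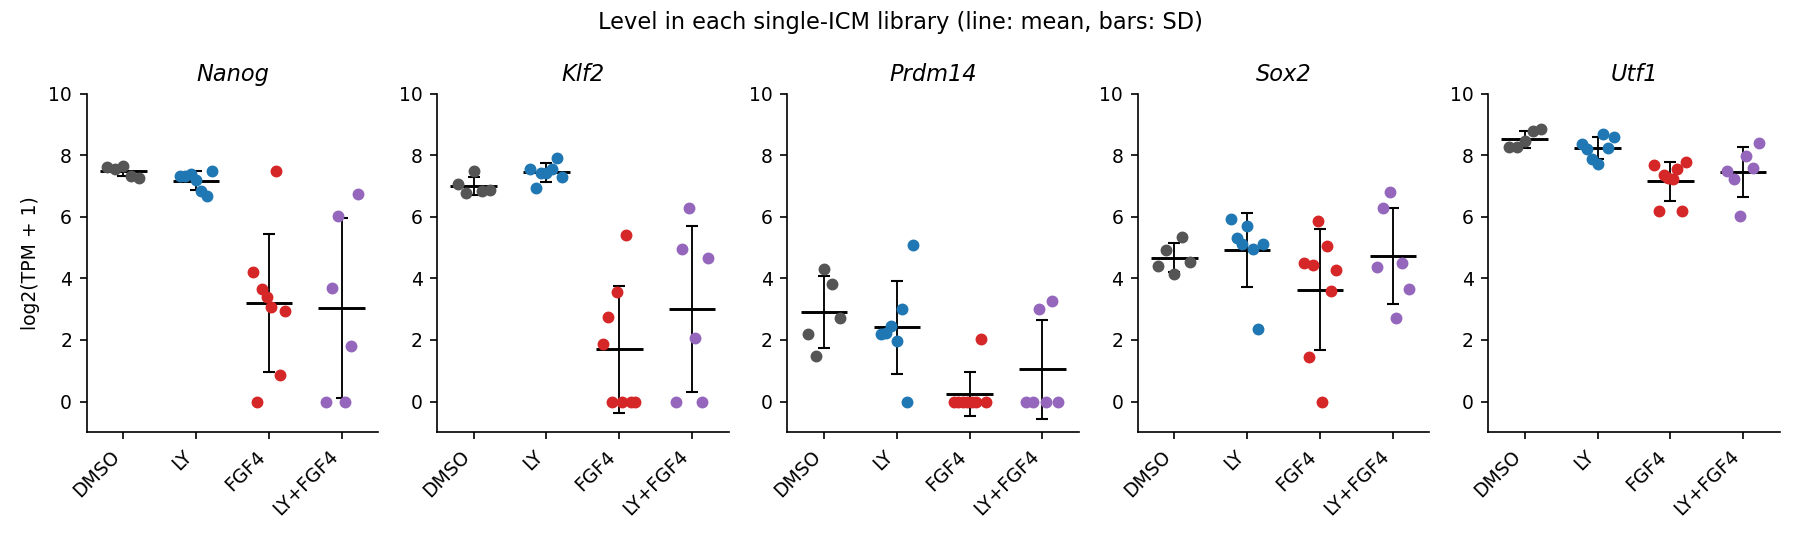
Level of each gene as log2(TPM + 1) in every library, by group; each point is 1 ICM, the line is the group mean and the bars are the SD. Nanog and Klf2 were tightly grouped in DMSO and LY and spread down to 0 in FGF4 and LY+FGF4, whereas Sox2 ranged widely in FGF4 and LY+FGF4 and overlapped the other groups.

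With FGF4, 4 of the 5 genes fell relative to DMSO, namely Klf2, Utf1, Nanog and Prdm14. Of all genes tested, 1.46% were called lower in this comparison. The members were chosen with earlier results of these data known, so such shares, here and below, are descriptions and no test of the set. Prdm14 met the filter mainly through the DMSO and LY libraries, as it was listed at 0 in 7 of 8 FGF4 and 4 of 6 LY+FGF4 libraries. The median of the 5 log2 fold changes was -2.64, and that of all genes tested was -0.10. The groups did not overlap for 2 genes, Klf2 and Utf1, with every FGF4 library below every DMSO library, which was so for 1.63% of all genes tested. The interaction, which asks whether the difference made by FGF4 was the same with and without LY, passed the test for 0 of the 5, and 0 had an unadjusted limma p under 0.05. It was called for 0.0499% of all genes.

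Nanog, the homeodomain factor of the epiblast, stood at 194.81, 186.22, 197.95, 160.01 and 152.3 TPM in DMSO replicates 3, 6, 7, 8 and 9. In FGF4 the lowest of the 8 values was 0, the median 8.49 and the highest 176.48 TPM. A single embryo, FGF4 replicate 6, lay within the range of the DMSO embryos, and the other 7 had at most 17.42 TPM. Nanog fell by 4.28 on the log2(TPM + 1) scale (SE 0.98, 95% interval -6.29 to -2.27, adjusted p = 0.0156). The group mean with FGF4 was 28.7 ± 60 TPM (n = 8), and the DMSO mean was 6.20 times as high. The call was lost when DMSO replicate 7 was left out (adjusted p = 0.0524) and with a pseudocount of 0.1 in place of 1 (-4.89, adjusted p = 0.0777). Without the 2 FGF4 libraries that listed fewer than 9000 genes, and the 4 such LY+FGF4 libraries, Nanog fell by 3.82 (adjusted p = 0.00318).

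FGF4 replicate 6, the embryo with DMSO-like Nanog, differed from its group in other genes as well. It was the only FGF4 library in which Fgf4 transcript, an epiblast product, was above 0, at 5.72 TPM. Its Gata4, a primitive endoderm transcription factor, was the lowest of the group at 34.07 TPM, while the other 7 ranged from 98.05 to 216.07 TPM. Its Cdx2, a trophectoderm factor, was 281.73 TPM, the highest of all 26 libraries, and its trophectoderm and primitive endoderm sums were the highest and the lowest of the FGF4 group. Sox17 (530.49 TPM) and Pdgfra (253.52 TPM) lay within the range of the other FGF4 embryos. What part these differences have in its Nanog level was not tested.

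Klf2 had 133.32, 109.3, 179.79, 112.5 and 115.2 TPM in the DMSO replicates in the same order. In FGF4 it was listed at 0 in 4 of 8 embryos, with a median of 1.35 and a maximum of 41.22 TPM, again in replicate 6. No FGF4 embryo reached the lowest DMSO or LY value. Klf2 fell by 5.31 (SE 0.92, 95% interval -7.19 to -3.42, adjusted p = 0.0019), the greatest change of the 5 genes, from a DMSO mean 17.2 times as high as the FGF4 mean of 7.57 ± 14.1 TPM (n = 8). It passed the test in each of the 13 fits that left out 1 DMSO or FGF4 library, with changes from -5.84 to -5.06.

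Prdm14 was a low transcript in all groups. It had 3.54, 1.76, 18.74, 13.11 and 5.61 TPM in DMSO, and in FGF4 it was listed at 0 in 7 of 8 embryos, the exception being replicate 7 with 3.09 TPM. It fell by 2.64 (SE 0.73, 95% interval -4.13 to -1.16, adjusted p = 0.046). That call stood close to the threshold and was kept in only 2 of the 13 fits that left out 1 DMSO or FGF4 library, over which the adjusted p ran from 0.0302 to 0.161. Its size depended on the pseudocount, at -5.34 with 0.1 (adjusted p = 0.0313) and -1.19 with 5 (adjusted p = 0.0836), and without the libraries that listed fewer than 9000 genes the call was lost (-2.56, adjusted p = 0.0659).

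The TPM values of low genes were spaced in steps, from which the value of 1 read, and hence the reads behind each value, could be estimated. For the 4 members with 1 annotated transcript, 48 of 53 values between 1 and 60 reads came within 0.15 of a whole number. Prdm14 rested on an estimated 9, 2, 17, 13 and 18 reads in DMSO replicates 3, 6, 7, 8 and 9, and on 5 reads in total over the 8 FGF4 libraries. A level of 3 reads was worth 1.85 to 4.66 TPM in the FGF4 libraries. The 1.76 TPM of DMSO replicate 6 lay below that range and the 3.54 TPM of replicate 3 within it. At this depth an FGF4 library listed at 0 cannot be told apart from one at the level of replicate 6 or, in some of the libraries, of replicate 3. Nanog and Klf2 rested on 122 to 383 and 78 to 263 estimated reads in DMSO, so their values of 0 were far below the DMSO levels at the depth of these libraries; Nanog has 3 annotated transcripts and its estimates are approximate.

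**Figure D2:**
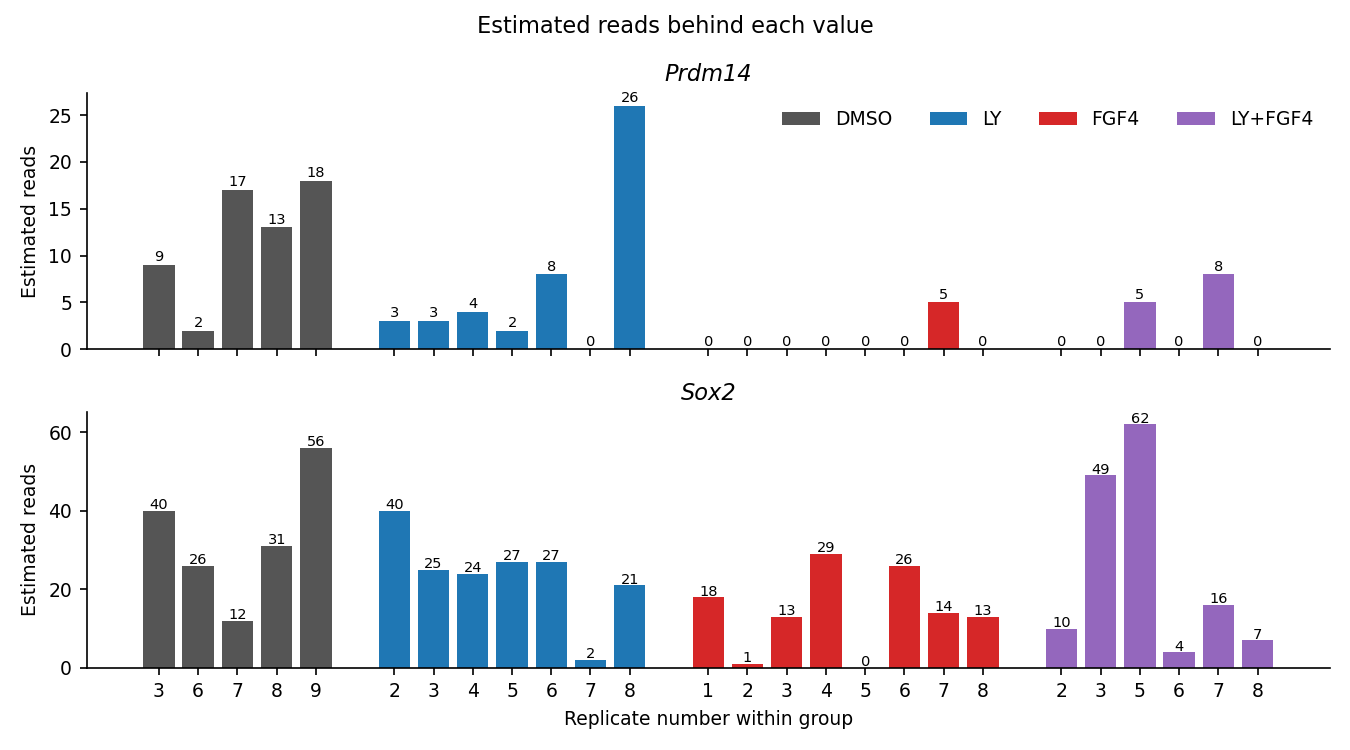
Estimated number of reads behind each value of Prdm14 (top) and Sox2 (bottom), 1 bar per library, coloured by group. Prdm14 had at most 26 estimated reads in any library and 0 in 1 LY, 7 FGF4 and 4 LY+FGF4 libraries, while Sox2 had 0 in only 1 FGF4 library.

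Utf1, the highest of the 5 in DMSO, had 307.05, 307.24, 349.39, 441.23 and 455.97 TPM there. Its lowest, median and highest values in FGF4 were 71.1, 158 and 219 TPM, so it remained detected in every embryo while every FGF4 value lay below every DMSO value. Utf1 fell by 1.37 (SE 0.31, 95% interval -2.01 to -0.73, adjusted p = 0.0143), and the DMSO mean was 2.45 times the FGF4 mean of 152 ± 55.3 TPM (n = 8). The call was kept in all 13 fits that left out 1 DMSO or FGF4 library. The coefficient of variation of Utf1 in FGF4 was 36.5%, compared with 209% for Nanog and 187% for Klf2. FGF4 replicate 6, which stood apart for Nanog and Klf2, had 186.05 TPM of Utf1, within the range of its group.

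Sox2 had 19.89, 29.02, 16.8, 39.7 and 21.98 TPM in DMSO. In FGF4 it ranged from 0 to 56.52 TPM with a median of 19.3, so that the lowest and the highest of these 13 embryos were both FGF4-treated. The difference was -1.03 (SE 0.80, 95% interval -2.66 to 0.60, adjusted p = 0.582) and did not pass the test. The interval includes both no difference and a fall as deep as that of Utf1. Sox2 had a median of 13.5 estimated reads in FGF4 and 31 in DMSO. Sox2ot, a noncoding gene that overlaps Sox2 on the same strand, was above 0 in only 2 libraries, at up to 8.55 TPM.

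Part of the trophectoderm and primitive endoderm transcripts moved with these differences. In FGF4 against DMSO, 3 of 13 trophectoderm genes fell (Sfn, Aqp3 and Cldn4) and none of the 13 rose, with a list median of -1.20. The difference was negative for 10 of the 13. None of the defining markers passed the limma test, with Cdx2 at -2.89 (adjusted p = 0.239), Krt18 at -1.20 (0.468) and Krt8 at -0.14 (0.891). In the same comparison 6 of 18 primitive endoderm genes rose, among them Lamc1 (2.64), Gata4 (4.18), Col4a1 (2.28) and Sox17 (2.76). None of the 18 fell, and the list median was 1.58. Of all genes, 0.981% were called higher. Pdgfra (2.11, adjusted p = 0.057 by limma), Gata6 (0.29, 0.688) and Hnf4a (-2.36, 0.349) did not pass. The difference was negative for 2 of the 18. With the trophectoderm score, the mean log2(TPM + 1) of the 13 genes, as a covariate, 0 of the 5 genes passed the limma test (4 at an unadjusted p under 0.05). The change of Klf2 was then -3.45 (adjusted p = 0.0759), that of Nanog -2.28 (0.334), that of Utf1 -1.41 (0.111) and that of Prdm14 -2.94 (0.148). With the number of listed genes as a covariate, only Klf2 of the 5 passed (-5.46, adjusted p = 0.00418), and Nanog stood at -3.92 (0.0566). Over all genes tested, 294 were called without a covariate, 38 with the score and 181 with the number of listed genes. The score is lower in the FGF4 group itself, and its part in the members' differences cannot be told apart from that of the treatment here.

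LY alone gave no call for any of the 5 genes. The count was 0 of 5 by limma in the fit of all 26 libraries, with 0 at an unadjusted p under 0.05. Of all genes, 0.374% were called in either direction. Nanog in the 7 LY embryos ran from 101 to 177 TPM with a median of 158. Of these embryos 4 lay within the DMSO range and 3 below it, and the difference was -0.31 (95% interval -2.37 to 1.76, adjusted p = 0.985). Klf2 ranged from 120 to 241 TPM with a median of 170, and 3 of the 7 LY embryos stood above every DMSO embryo. Its difference was 0.43 (95% interval -1.51 to 2.37, adjusted p = 0.981).

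The remaining genes overlapped between LY and DMSO too. Utf1 ranged from 209 to 409 TPM in LY with a median of 302, and differed by -0.28 (95% interval -0.94 to 0.37, adjusted p = 0.92). Sox2 ranged from 4.1 to 60.28 TPM with a median of 33.74 and differed by 0.26 (95% interval -1.42 to 1.93, adjusted p = 0.985). Prdm14 ranged from 0 to 33.06 TPM with a median of 3.63 and differed by -0.48 (95% interval -2.01 to 1.05, adjusted p = 0.965). LY replicate 7 had the lowest Sox2, the lowest Prdm14 and the lowest Nanog of its group and at the same time its highest Klf2, 240.65 TPM. These intervals are wide: those of Nanog and Klf2 hold changes of more than 1.5 log2 units in either direction. They rest on a spread shared by all 26 libraries, which for Nanog and Klf2 was greater, relative to the mean, in the FGF4-treated groups. In a limma fit of LY and DMSO alone, Klf2 differed by 0.43 (95% interval 0.01 to 0.85, unadjusted p = 0.0444, adjusted p = 0.287). Nanog differed by -0.31 in that fit (-0.69 to 0.08, adjusted p = 0.43).

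FGF4 was also compared in the presence of LY, with the LY embryos as the controls, which share no library with the FGF4 and DMSO groups. In LY+FGF4 against LY, Klf2 and Nanog fell, 2 of the 5 genes against 4.5% of all genes called lower. Klf2 also had every LY+FGF4 embryo below every LY embryo, the only 1 of the 5 and a separation found for 1.21% of all genes. The median change of the 5 was -1.37 beside -0.24 for all genes tested.

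Nanog in LY+FGF4 had values from 0 to 104.79 TPM with a median of 7.12. Replicates 2 and 6 were listed at 0, and replicates 8 (104.79 TPM) and 5 (64.62 TPM) stood above the rest, of which the highest had 11.74 TPM. Nanog fell by 4.13 relative to LY (SE 0.96, 95% interval -6.10 to -2.17, adjusted p = 0.00978). Klf2 ranged from 0 to 77.35 TPM with a median of 13.7, with replicates 2 and 7 at 0. It fell by 4.44 (SE 0.90, 95% interval -6.28 to -2.60, adjusted p = 0.00345). Both calls were kept in all 13 fits without 1 LY or LY+FGF4 library. They were also kept without the libraries that listed fewer than 9000 genes, where Nanog stood at -6.27 and Klf2 at -6.41. That fit drops LY+FGF4 replicates 3, 5 and 8, which had the highest levels of both genes in the group. It leaves only replicates 6 and 7 of LY+FGF4. With the number of listed genes as a covariate Nanog lost its call (-3.40, adjusted p = 0.198) and Klf2 kept it (-4.76, adjusted p = 0.0439).

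Utf1 in LY+FGF4 ranged from 64.53 to 338.02 TPM with a median of 186, and overlapped the LY embryos. Its difference was -0.78 (95% interval -1.41 to -0.16, unadjusted p = 0.0158, adjusted p = 0.123 by limma). Prdm14 was listed at 0 in 4 of 6 LY+FGF4 embryos and had 7.03 and 8.55 TPM in replicates 5 and 7, a difference of -1.37 (95% interval -2.83 to 0.08, adjusted p = 0.263). Sox2 ran from 5.62 to 109.79 TPM with a median of 20.5, and its difference was -0.20 (95% interval -1.79 to 1.39, adjusted p = 0.922). The values of Utf1 and Prdm14 passed the test with FGF4 alone and did not with LY present, but the interaction was 0.59 for Utf1 (95% interval -0.30 to 1.49, adjusted p = 0.899) and 1.27 for Prdm14 (-0.81 to 3.35, 0.907), so a difference between the 2 settings was not shown.

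**Figure D3:**
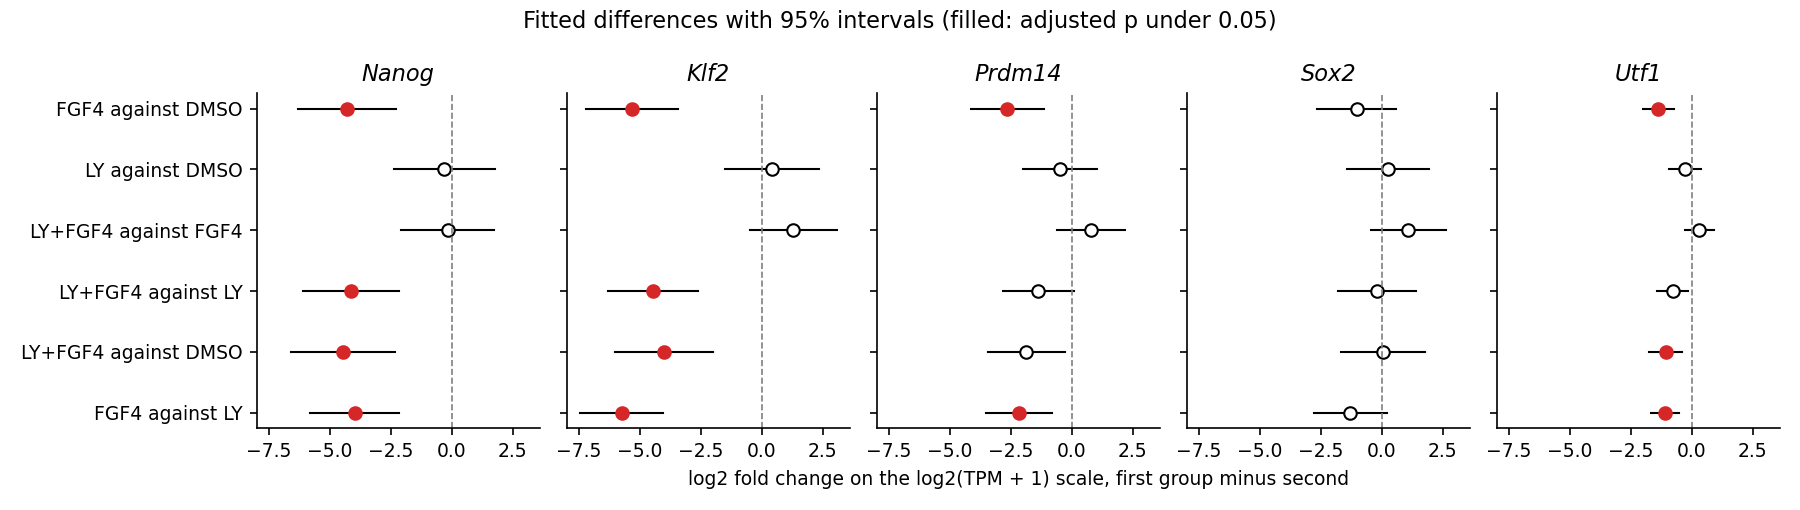
Fitted log2 fold change of each gene in 6 comparisons between groups, with 95% intervals; a positive value is higher in the first-named group, and filled points passed an adjusted p under 0.05. Klf2 and Nanog were below 0 with their whole interval wherever an FGF4-treated group was set against DMSO or LY, and the Sox2 intervals all cross 0.

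With LY added to FGF4, none of the 5 genes passed the test against FGF4 alone. In LY+FGF4 against FGF4, 0 of 5 passed the limma test and 0 had an unadjusted p under 0.05, against 3.55% of all genes called in either direction. The differences were 1.29 for Klf2 (95% interval -0.49 to 3.08, adjusted p = 0.442), 1.09 for Sox2 (-0.46 to 2.63, 0.46) and 0.79 for Prdm14 (-0.62 to 2.20, 0.569). They were 0.31 for Utf1 (-0.30 to 0.91, 0.617) and -0.16 for Nanog (-2.07 to 1.75, 0.952). Of these, Klf2 and Sox2 turned to -0.78 and -0.26 without the libraries that listed fewer than 9000 genes, so their direction rests on those libraries. Nanog moved most in that fit, to -2.75 (95% interval -4.67 to -0.83, unadjusted p = 0.00703, adjusted p = 0.152 by limma), in which only 2 LY+FGF4 embryos remain. It turned to 0.45 without FGF4 replicate 6.

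Against DMSO, LY+FGF4 gave calls for 3 of 5 genes, against 7.3% of all genes called lower. Nanog fell by 4.44 (adjusted p = 0.00783), Klf2 by 4.01 (adjusted p = 0.00959) and Utf1 by 1.07 (adjusted p = 0.0398). Nanog and Klf2 had no overlap between these groups, as did 4.85% of all genes in this direction. Prdm14 was at -1.86 (95% interval -3.44 to -0.27, adjusted p = 0.129) and Sox2 at 0.06 (-1.67 to 1.79, 0.979). The Utf1 call was kept in 3 of 11 fits that left out 1 DMSO or LY+FGF4 library. FGF4 against LY, where both agents differ, gave calls for Klf2, Nanog, Utf1 and Prdm14, 4 of 5 against 4.32% of all genes called lower. The Prdm14 call (-2.16, adjusted p = 0.0381) was kept in 3 of 15 fits that left out 1 FGF4 or LY library, and the other calls in all 15. The smallest adjusted p of any of the 5 genes was that of Klf2 here (-5.74, adjusted p = 5.84e-05).

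By group mean, Nanog was ordered DMSO, LY, LY+FGF4 and FGF4, with 178, 146, 30.6 and 28.7 TPM, and of the steps between neighbours only that from LY to LY+FGF4 passed the test. Klf2 was ordered LY, DMSO, LY+FGF4 and FGF4, with 176, 130, 22.5 and 7.57 TPM, and only the step from DMSO to LY+FGF4 passed. Utf1 was ordered DMSO, LY, LY+FGF4 and FGF4, with 372, 309, 195 and 152 TPM, and no step between neighbours passed although DMSO differed from each group with FGF4. Prdm14 followed the same order with 8.55, 7.81, 2.60 and 0.386 TPM, and no neighbouring step passed. Sox2 was ordered LY+FGF4, LY, DMSO and FGF4, with 40.9, 35.8, 25.5 and 20.2 TPM, and no step or pair of groups passed.

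Taken over all groups, Nanog and Klf2 also varied together from embryo to embryo. Over the 26 libraries their log2(TPM + 1) values had a Pearson r of 0.86, and 0.68 after each group's mean was taken off, the highest of the 10 pairs among the 5 genes by both measures. These are descriptions: values of 1 library share its depth and cell makeup. In FGF4, replicate 6 was highest for both. In LY+FGF4, replicates 3, 5 and 8 were the 3 highest for both, but replicate 8 led for Nanog and replicate 5 for Klf2. Within LY the 2 genes did not rise together. Replicate 7 had the lowest Nanog, 101.41 TPM, and the highest Klf2, 240.65 TPM. Replicate 8 had the highest Nanog, 176.54 TPM, with Klf2 of 156.94 TPM, below the group median of 169.68. The r around group means rests mainly on the FGF4-treated embryos, where both genes spread down to 0. Around the group means Nanog had an r of 0.44 with Sox2, 0.19 with Utf1 and 0.04 with Prdm14.

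**Figure D4:**
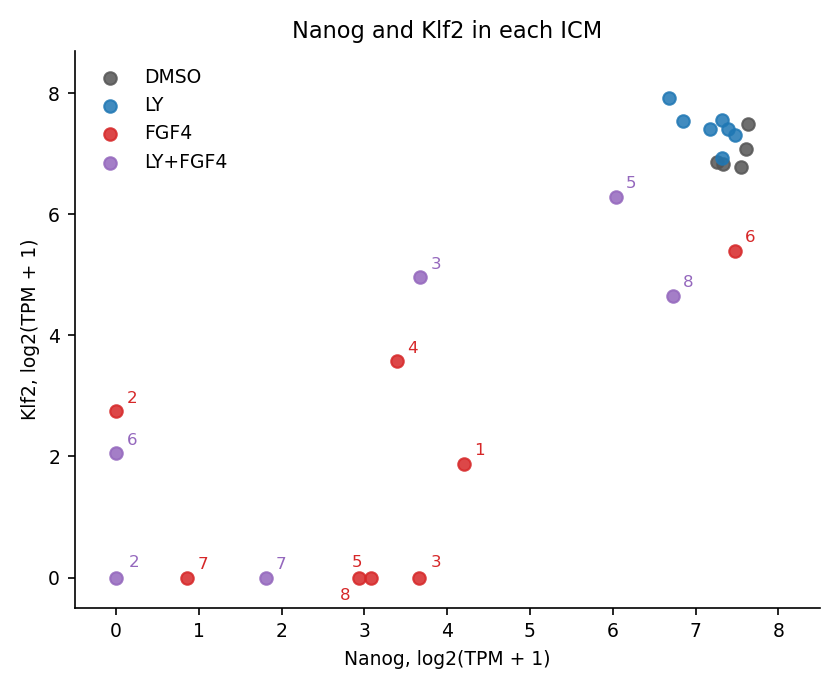
Klf2 against Nanog, both as log2(TPM + 1), in each of the 26 ICMs, coloured by group. The DMSO and LY embryos form a compact cloud at the top right, and the FGF4 and LY+FGF4 embryos run from both genes at 0 to FGF4 replicate 6 and LY+FGF4 replicates 5 and 8.

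The LY+FGF4 embryos with the most Nanog or Sox2 were not alike in other genes. Replicate 8 (Nanog 104.79 TPM) had the least Gata4 of its group, 1.97 TPM, with Sox17 at 332.07 TPM and Cdx2 at 0. Replicate 5 had the highest Sox2 of all 26 libraries, 109.79 TPM, and the highest Klf2 of its group, but also the lowest Utf1 of all 26, 64.53 TPM, and Gata4 at 87.51 TPM. Replicate 3 combined Sox2 of 77.53 TPM with Nanog of only 11.74 and Gata4 of 3.77 TPM. All 3 of these libraries listed fewer than 9000 genes.

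The promoters of 3 of the genes are shown because binding of SOX2 and OCT4 at a composite element before the Nanog start is well known, and because Klf2, which was low together with Nanog, and Sox2, which gave no call, can be set beside it. On GRCm38 (GENCODE M21) Nanog lies at chr6:122707489-122714633 on the plus strand with 4 or 5 exons, Klf2 at chr8:72319033-72321656 on the plus strand with 3 exons, and Sox2, a single-exon gene, at chr3:34650405-34652461 on the plus strand. Prdm14 lies at chr1:13113457-13127163 on the minus strand with 8 exons, and Utf1 at chr7:139943789-139945112 on the plus strand with 2 exons. The stretches below are plus-strand sequence from RefSeq windows on GRCm38.p6, which 4 of the 5 genes had, and end before the first annotated start of each gene. Nanog is chr6:122707239-122707488, Sox2 chr3:34649745-34649994 and Klf2 chr8:72318812-72319032. Capitals mark matches to the motifs named after the sequences.
Nanog: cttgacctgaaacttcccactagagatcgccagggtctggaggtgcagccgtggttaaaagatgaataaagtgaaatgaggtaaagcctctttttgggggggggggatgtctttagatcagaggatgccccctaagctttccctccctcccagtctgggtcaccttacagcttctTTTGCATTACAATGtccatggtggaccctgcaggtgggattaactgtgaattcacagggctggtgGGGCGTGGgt
Sox2: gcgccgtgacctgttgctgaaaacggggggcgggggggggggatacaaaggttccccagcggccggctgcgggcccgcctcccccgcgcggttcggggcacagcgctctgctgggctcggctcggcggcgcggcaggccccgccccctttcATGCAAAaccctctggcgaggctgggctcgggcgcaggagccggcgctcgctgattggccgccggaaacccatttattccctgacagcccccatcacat
Klf2: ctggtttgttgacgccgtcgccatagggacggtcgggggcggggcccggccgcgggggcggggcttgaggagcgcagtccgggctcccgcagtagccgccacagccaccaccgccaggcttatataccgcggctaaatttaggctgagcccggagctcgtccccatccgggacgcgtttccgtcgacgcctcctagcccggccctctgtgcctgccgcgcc
On both strands, the windows (250 bases before to 50 after a start) were searched for the SOX-POU composite, which is CATTGT, then any 1 base, then the POU core ATGCAAA, for that core alone and for the KLF-type CACCC box GGGNGTGG. The composite was found in 2 of 32851 windows (0.00609%), both of them Nanog windows that overlap. It lies at chr6:122707414-122707427 on the minus strand. That is 75 to 62 bases before the first of 2 RefSeq starts and 151 to 138 bases before the second. The letters searched for are those of this Nanog stretch with 1 base left free. The match was therefore fixed in advance, and its rarity cannot show whether such elements set Nanog apart. The POU core was in 4.63% of windows, among them those of Nanog and Sox2. The CACCC box was in 17.6% of windows and, of the members' windows, in those of Nanog alone, at chr6:122707479-122707486 and chr6:122707513-122707520. The latter is past the first start, and so not printed, and 52 to 45 bases before the second. None of the 3 motifs was in the Klf2 window or in the Utf1 window. A match is a description of the letters, and no binding was measured here.

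Among 20 other transcription factors of pluripotency, all of them tested, FGF4 against DMSO gave 1 call higher and 2 lower, with a list median of -0.10, beside -0.10 for all genes tested. The orphan receptor Nr5a2 fell (-2.03, adjusted p = 0.0292) from 146 ± 31.8 TPM (n = 5) to 46.7 ± 34.6 (n = 8), and Dppa2, a chromatin factor, fell by 1.10 (adjusted p = 0.0357). Pou5f1, which encodes the partner of SOX2, had 1549 ± 148 TPM (n = 5) in DMSO and 1128 ± 182 (n = 8) in FGF4, and its difference of -0.47 (adjusted p = 0.0967) did not pass. Esrrb (-0.93, adjusted p = 0.201), Tfcp2l1 (-0.88, 0.157), Zfp42 (-0.90, 0.0668) and Otx2 (-2.11, 0.197) did not pass either. In LY+FGF4 against LY, 5 of the 20 fell and none of the 20 rose, among them Tfap2c (-3.50, adjusted p = 0.00252), Otx2 (-3.53, 0.01) and Pou5f1 (-0.61, 0.0127).

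Relatives of the members were tested beside them. Klf5, a KLF factor of the blastocyst, rose with FGF4 from 52.4 ± 12.6 TPM (n = 5) to 122 ± 47.7 (n = 8), a change of 1.18 (adjusted p = 0.0113), while Klf2 fell. Klf4 stood at 33.5 ± 14.7 TPM in DMSO and 30.8 ± 24.97 with FGF4, and its difference of -0.30 (adjusted p = 0.855) did not pass. Sox15, a SOX factor, was listed at 0 in 4 of 5 DMSO and 7 of 8 FGF4 embryos. In LY+FGF4 against FGF4 its difference was 1.71 (adjusted p = 0.162).

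Of 9 tested epiblast genes other than transcription factors, 2 fell with FGF4 and none of the 9 rose, with a median of -1.03. Fgf4 transcript itself fell by 5.15 (adjusted p = 8.85e-07) and was listed at 0 in 7 of 8 FGF4 and 6 of 6 LY+FGF4 embryos. Dppa3, a maternal and epiblast factor, fell by 1.04 (adjusted p = 0.0127). Tdgf1, a NODAL co-receptor, was at -3.31 (adjusted p = 0.0544). Of 5 tested genes other than the members with a known SOX2-OCT4 element, only Fgf4 fell with FGF4, and the median of the 5 was -0.47. The members were left out there, whether or not they have such an element. Nanog, which has one before its start, fell by 4.28 with FGF4. Utf1 fell less, at -1.37, and Sox2, at -1.03 (adjusted p = 0.582 by limma), did not pass. Elements of the members outside the promoter windows were not searched for. The fall of Nanog alone therefore does not show how genes with such elements behaved. In LY+FGF4 against LY 4 of the 9 epiblast genes fell, namely Fgf4 (-4.94), Gdf3 (-3.12), Dppa3 (-1.21) and Tdgf1 (-3.06).

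Of 6 genes that PRDM14 is known to repress in embryonic stem cells, 1 rose with FGF4 and none of the 6 fell, with a median of 1.46. Fgfr2, an FGF receptor that primitive endoderm and trophectoderm also express, rose by 2.38 (adjusted p = 0.0378) from 22.01 ± 15.8 TPM (n = 5) to 94.0 ± 31.6 (n = 8). The DNA methyltransferase genes Dnmt3b (1.63, adjusted p = 0.113), Dnmt3a (1.88, 0.334) and Dnmt3l (1.30, 0.489) did not pass. The other receptor gene, Fgfr1 (-0.48, adjusted p = 0.57), and Uhrf1, which encodes a cofactor of maintenance methylation (-0.31, 0.727), were below 0 and did not pass either. In LY+FGF4 against LY, Fgfr2 was again the only 1 of the 6 that passed, with a rise of 4.57 (adjusted p = 7.55e-05) where 1.79% of all genes were called higher, while Prdm14 did not pass in that comparison.

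The genes whose levels were most like those of each member were found by Pearson r of log2(TPM + 1) over the 26 libraries, among 9537 genes. For Nanog these were Tmem41b (0.92), Cldn7 (0.89) and Sat1 (0.89), and for Klf2 they were Psap (0.88), Cldn4 (0.88) and Rab20 (0.87). Cldn4 is also on the trophectoderm list, and Cldn7 encodes another claudin of epithelial junctions. Tmem41b averaged 3101 ± 465 TPM in DMSO and 1162 TPM in FGF4, so it was lower where Nanog was lower but remained abundant. The best matches of the other genes were weaker, with r of 0.74 for Prdm14 (Cfl1), 0.75 for Sox2 (Klf10) and 0.79 for Utf1 (Bri3bp). Klf10 had means of 48.9 TPM in DMSO and 109 TPM with LY, and of 24.9 TPM with FGF4 and 108 TPM with both. All points share their libraries and hence their depth, and no test was made of these likenesses.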

How the data were processed

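The authors deposited 1 table of TPM values per gene symbol for 26 single-ICM libraries. Reads were trimmed and de-duplicated, per the labels. The aligner STAR, the quantifier RSEM and the build mm10 come from the submitters' processing notes. Tool versions, gene annotation and strand setting were not given in the sources used here. TPM values state no depth, so no counting intervals are given, and the reads behind a value were estimated from the spacing of low TPM values of 16615 genes with 1 annotated transcript (GENCODE M21).

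Differences in log2(TPM + 1) were fitted with limma 3.58.1 (R 4.3.3) for 12034 genes with at least 1 TPM in at least 5 libraries, with all 26 libraries, 1 mean per group, and empirical Bayes moderation with trend and robust estimation. Two-sided p-values were given Benjamini-Hochberg adjustment over all genes, with a threshold of 0.05. Fold changes on this scale understate changes of low genes. The script was tested on simulated data. Groups come from the labels. Replicate numbers repeat between groups, and no label says that they pair embryos.

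The members and the gene lists were chosen with earlier results of these data known. Genes named are the members, the lineage and pluripotency genes set beside them, up to 4 called genes of smallest p per list and the 3 genes most like each member. Alternatives were other pseudocounts, filters, scaling, library weights, covariates, a replicate block, fits of 2 groups and fits without shallow or single libraries.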

Additional observations from a re-analysis of the deposited data

Results flagged for a closer look

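Each member was looked at in each of the 4 groups, 20 sets of values in all, for a highest or lowest embryo that stood far from the others of its group. In values with a normal spread, chance flags about 1 in 20 such sets, and 4 were found here. TPM values with many zeros do not have that spread, so the 4 cannot be set against this rate. Nanog in FGF4 replicate 6 was 176.48 TPM, with a gap to the next embryo of 0.901 of the group's range (limit 0.526). Klf2 in the same embryo was 41.22 TPM, with a gap of 0.736 of the range. Prdm14 in LY replicate 8 was 33.06 TPM, with a gap of 0.787 of the range (limit 0.568). Prdm14 in FGF4 replicate 7 was 3.09 TPM, the only value of that group above 0, so that its gap is the whole range at any level. No member's interaction passed the test.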

How the results depend on the processing

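The count of 4 members called in FGF4 against DMSO went to 1 with the number of listed genes as a covariate, to 0 with the trophectoderm score as a covariate and to 1 with the replicate block, and to 2 without DMSO replicate 7 (2 to 4 over all fits without 1 library). It went to 3 with a pseudocount of 0.1, which lost Nanog, and to 3 with a pseudocount of 5, with no filter, without the trend and robust options and without libraries under 9000 genes, each of which lost Prdm14 (adjusted p of 0.0836, 0.0665, 0.0545 and 0.0659). The replicate block was only an alternative: residuals of same-numbered libraries had a median r of -0.00406 over 31 pairs, and 2 of 26 libraries were most like one of their own number. With the block Nanog was -4.29 (adjusted p = 0.104) and Klf2 kept its call. The count of 2 in LY+FGF4 against LY went to 1 with the number of genes listed, and the count of 3 in LY+FGF4 against DMSO to 0 with that number, to 0 with the trophectoderm score and to 1 with the replicate block. Calls over all genes also fell with the covariates and the block. In FGF4 against DMSO they went from 294 to 181 with the gene number, 38 with the trophectoderm score and 41 with the block. They were 112 without DMSO replicate 7, 331 with a pseudocount of 5 and 470 without libraries under 9000 genes. In LY+FGF4 against LY they went from 758 to 108 with the gene number. In LY+FGF4 against DMSO they went from 1143 to 75 with that number, 570 with the score and 460 with the block. The cause was not tested.

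Of 494 refits of the 13 called member differences, 424 kept their call, 70 lost it and 0 changed sign. In 830 refits of the 22 uncalled ones, 32 changed sign and 0 gained a call. For each difference these totals count all 26 fits without 1 library, also those where that library belonged to neither compared group. The share of calls kept is therefore higher than over fits that touch the compared groups. For LY against DMSO, Nanog was 0.0452 and 0.29 with the gene number and the trophectoderm score, and Utf1 0.0255 with the block. For LY+FGF4 against FGF4, Nanog was 0.093 with a pseudocount of 5, 0.57 with the gene number, 0.0301 with the block, and -0.90 to 0.45 without 1 library, and Klf2 was -0.78 and Sox2 -0.26 without libraries under 9000 genes. For Sox2, LY+FGF4 against LY was 0.28 with the trophectoderm score, 0.0102 with the block and -0.63 to 0.20 without 1 library, and LY+FGF4 against DMSO was -1.05 without libraries under 9000 genes and -0.36 to 0.46 without 1 library. The interaction of Nanog was -0.43 with a pseudocount of 0.1, -0.0639 with library weights, -0.83 with the trophectoderm score, -2.45 without libraries under 9000 genes, and -0.59 to 0.76 without 1 library. That of Klf2 was -0.0385 with the score and -1.21 without those libraries, and that of Sox2 -0.52. Low read numbers limit Prdm14, and 2 LY+FGF4 libraries remain without the shallow ones.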
